A study of Mus musculus with 36 samples.

Results

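Genes of cholesterol synthesis, its regulation and sterol transport were followed through mouse liver and mouse embryonic fibroblast (MEF) libraries of polyadenylated RNA. Many of them, but not all, are targets of the transcription factor SREBP2. The set holds 27 genes taken by name: 9 of the mevalonate steps, 12 of the squalene and sterol steps, 4 regulators of the pathway and 2 of sterol uptake and transport. All 27 were measured and passed the filter on low values in both tissues, in a liver table of 136300 genes (23875 tested) and an MEF table of 32266 genes (13914 tested).

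The series asks what loss of Vps15 does in liver and in cultured cells. Vps15, the product of Pik3r4, is a regulatory partner of Vps34, the lipid kinase of autophagy and endosomes. Liver libraries came from male mice aged 4 weeks and killed at zeitgeber time 14, and formed 4 groups of 3: wild type or Vps15f/f with Ttr CRE+, each fed ad libitum or fasted for 24 h. The series' design text calls the second genotype Vps15iLKO. The Cre is named after Ttr, a gene made mainly in hepatocytes, and frozen whole liver was powdered for RNA, so other liver cells contributed to every library. The MEF libraries formed 8 groups of 3. All MEFs carried the floxed Vps15f/f alleles and received an adenovirus with GFP (labelled wild type) or with CRE (labelled Vps15 knockout). Before treatment they grew in DMEM with high glucose and FBS. They were then kept without FBS in basal medium, without methionine for 4 h, or without methionine for 4 h and with methionine again for 1 h or 4 h.

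Cells make cholesterol from acetyl-CoA through mevalonate, isoprenoid diphosphates, squalene and lanosterol, and liver is a main site of this synthesis. When sterols are scarce in the endoplasmic reticulum, the escort protein Scap carries SREBP2 to the Golgi, where proteases free its DNA-binding part. When sterols are plentiful, Insig1 or Insig2 holds Scap and SREBP2 back. Feeding raises and fasting lowers the activity of SREBP proteins in liver, and Insig1 is itself a target of SREBP2.

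SREBP2 binds sterol regulatory elements, often beside a CCAAT box bound by NF-Y, so the promoters of the set were searched for 4 motifs on both strands. The RefSeq promoter table of build GRCm38.p6, which gives 250 bases before to 50 bases after each start site, held 23 of the 27 genes (29 start sites). It had no entry for Stard4, Fdft1, Sqle and Fdps. TCACCCCAC, a core of the sterol regulatory element, was found in 1 gene of the 23, Hmgcs1, and in 0.551% of all 32851 promoters in the table. The looser TCACNCCAC, which includes the first motif, also matched only Hmgcs1 among them and 1.24% of all promoters. CCAAT was present in 20 of the 23 genes (in 20 of 29 promoters) and in 37.4% of all promoters. The 3 genes without it were Aacs, Acat2 and Scap. The E-box CACGTG, which can overlap the end of TCACCCCAC by its first letters, was present in 5 of the 23 genes (Dhcr7, Hsd17b7, Insig1, Sc5d and Scap) and in 7.15% of all promoters. A match describes these letters only, and a missing match says nothing of binding. The 250 bases before the start site are given for 4 genes on which the liver results turn: Hmgcs1 (chr13:119690101-119690350, plus strand), Mvd (chr8:122443423-122443672, minus strand), Insig1 (chr5:28071162-28071411, plus strand) and Insig2 (chr1:121332590-121332839, minus strand, the outermost of its 3 start sites). Capitals mark TCACCCCAC and each CCAAT, which appears as its reverse complement where it lies on the other strand.
Hmgcs1: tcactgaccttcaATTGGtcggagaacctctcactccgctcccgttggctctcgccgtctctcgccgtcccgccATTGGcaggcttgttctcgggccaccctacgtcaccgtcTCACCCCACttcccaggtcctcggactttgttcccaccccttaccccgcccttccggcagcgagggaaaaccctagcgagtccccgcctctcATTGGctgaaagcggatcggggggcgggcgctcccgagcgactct
Mvd: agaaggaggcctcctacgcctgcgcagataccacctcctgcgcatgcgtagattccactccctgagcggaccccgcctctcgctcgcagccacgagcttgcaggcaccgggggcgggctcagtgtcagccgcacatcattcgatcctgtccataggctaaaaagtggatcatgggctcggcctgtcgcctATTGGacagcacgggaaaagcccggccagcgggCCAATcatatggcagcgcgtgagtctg
Insig1: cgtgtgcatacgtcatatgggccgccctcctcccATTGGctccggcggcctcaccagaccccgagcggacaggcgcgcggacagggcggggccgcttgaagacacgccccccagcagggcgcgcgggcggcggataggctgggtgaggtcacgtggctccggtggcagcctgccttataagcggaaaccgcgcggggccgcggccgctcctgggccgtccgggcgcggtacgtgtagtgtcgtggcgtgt
Insig2: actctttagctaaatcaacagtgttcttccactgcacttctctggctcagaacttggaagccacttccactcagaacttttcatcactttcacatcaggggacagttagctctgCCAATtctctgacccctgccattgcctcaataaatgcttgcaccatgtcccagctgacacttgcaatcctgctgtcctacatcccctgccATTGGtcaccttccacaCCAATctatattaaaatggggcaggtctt
Counted from the start site, the sterol element core of Hmgcs1 began at −137 and its nearest upstream CCAAT match at −176. Mvd held CCAAT at −60 and −27. Insig1 held a single CCAAT, at −216, and an E-box at −101. Insig2 held CCAAT at −136, −46 and −29 of its outermost start site, and its other start sites held none.

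Liver libraries held 9110836 to 12870944 counts, and counts recovered from the MEF values summed to 19345029 to 21245006 per library. Single members had 36.0 to 4246 counts in a liver library and 116 to 6534 in an MEF library. Pik3r4 stood at 23.1, 17.6 and 22.9 CPM (counts scaled to a common library size, with TMM factors) in the fed wild-type libraries and at 24.6, 22.2 and 25.3 in the fed knockout libraries. It stood at 21.0, 24.7 and 21.2 in fasted wild type and at 21.1, 24.0 and 18.2 in fasted knockout, and the groups overlapped. Which part of Pik3r4 is deleted is not stated, and a level of the whole transcript cannot check it, so these groups are knockout by label. In liver, the summed CPM of the 9 measured hepatocyte markers (of 10 listed) was 33323 to 36402 in fed and 41670.1 to 43554 in fasted wild type, against 15816 to 19184 and 16855 to 19411 in fed and fasted knockout. The sum of 12 macrophage markers was 1476 to 1934 in fed and 492 to 682 in fasted wild type, against 2589 to 2949 and 2471 to 2722. That of 7 cycling cell markers was 8.76 to 17.2, 2.84 to 3.63, 44.0 to 72.7 and 25.3 to 35.2 in the same order. The sum of 10 fibroblast and stellate markers was 542 to 582, 382 to 399, 781 to 1068 and 699 to 757, and that of 6 bile duct markers 93.7 to 103, 78.8 to 96.2, 188 to 253 and 199 to 259. No marker of the liver lists was at 0 in all libraries. These sums move with both fasting and genotype, and their part in the results below was not tested. Fewer cells of a type and less RNA per cell cannot be told apart in such libraries. The labels call the libraries of a group replicates without tying them to separate animals or cultures, so p-values measure only the spread between these libraries, which may be technical.

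In wild-type mice, fasted liver was compared with fed liver to see how the pathway responds to 24 h without food. Most of the set fell: 21 of 27 genes were lower in fasted liver and 2 were higher at an adjusted p under 0.05 (edgeR's quasi-likelihood test, adjusted over all tested genes), where 26.3% of all tested genes were called. The median log2 fold change was −0.95 over the set and −0.01 over all tested genes. By role, 8 of 9 genes of the mevalonate steps and 10 of 12 of the squalene and sterol steps fell. The plot of levels by liver library shows the fasted wild-type points to the left of the other groups for most of these genes.

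**Figure D1:**
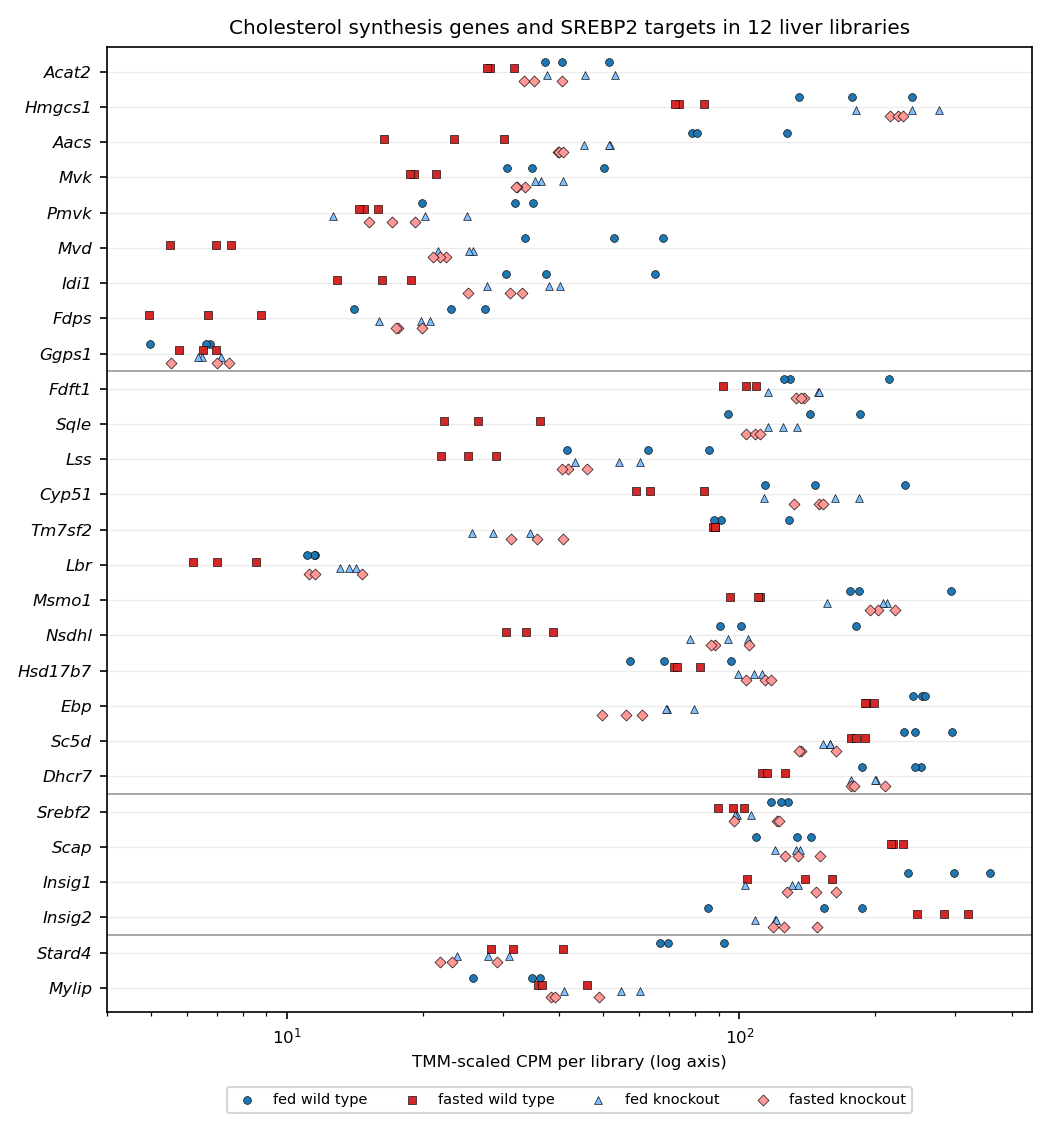
TMM-scaled CPM (log axis) of the 27 genes in each of 12 liver libraries, with 1 point per library, genes ordered by role and grey lines between roles. For Mvd the fasted wild-type libraries lie at 6.96, 7.52 and 5.50, below the 9 other libraries, whereas for Insig2 and Scap they lie above them.

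Among the mevalonate steps the largest fall was that of Mvd (ENSMUSG00000006517, chromosome 8, 122433601 to 122443422, minus strand), the decarboxylase that makes isopentenyl diphosphate. It stood at 67.7, 52.8 and 33.6 CPM in fed and at 6.96, 7.52 and 5.50 CPM in fasted wild-type libraries. The groups did not overlap, and the level was 7.68-fold lower after fasting (log2 fold change −2.94 ± 0.22 SE, adjusted p = 5.04e-07). Aacs, which activates acetoacetate in the cytosol and so feeds ketone body carbon into lipid synthesis, went from 128, 78.5 and 80.6 to 16.4, 23.4 and 30.2 CPM, a log2 fold change of −2.04 ± 0.21. Fdps, farnesyl diphosphate synthase, fell by 1.65 on the log2 scale, and Idi1, isopentenyl diphosphate isomerase, by 1.47. Hmgcs1 (ENSMUSG00000093930, chromosome 13, 119690379 to 119708260, plus strand), the cytosolic HMG-CoA synthase, stood at 241, 177 and 136 CPM in fed and 73.5, 83.6 and 72.2 in fasted libraries (log2 fold change −1.27 ± 0.19 SE, adjusted p = 0.000142). The kinases Mvk and Pmvk fell by 0.97 and 0.94, and Acat2, a cytosolic thiolase that joins acetyl-CoA units, by 0.56. Ggps1, which makes geranylgeranyl diphosphate for protein prenylation and lies off the path to sterols, was the exception with 0.07 ± 0.19 (adjusted p = 0.831).

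Of the squalene and sterol steps, Sqle (ENSMUSG00000022351, chromosome 15, 59315077 to 59331192, plus strand), the squalene epoxidase and a rate-limiting enzyme, fell most. Its levels were 185, 143 and 94.3 CPM in fed and 26.4, 36.2 and 22.3 CPM in fasted wild type, with no overlap, a 4.97-fold lower level (log2 fold change −2.31 ± 0.21 SE, adjusted p = 2.29e-06). Nsdhl, a sterol dehydrogenase that removes the C4 methyl groups together with Msmo1, went from 181, 101 and 90.8 to 30.4, 38.7 and 33.8 CPM (−1.85 ± 0.22). Lss, the lanosterol synthase, fell by 1.32 on the log2 scale, Cyp51, the lanosterol demethylase, by 1.26, Msmo1 by 1.05 and Dhcr7, which makes cholesterol from 7-dehydrocholesterol, by 0.95. Falls were smaller for Lbr (−0.65), the squalene synthase Fdft1 (−0.62), the desaturase Sc5d (−0.49) and the sterol isomerase Ebp (−0.38). Lbr and Tm7sf2 encode sterol C14 reductases, and Tm7sf2 did not pass the test (−0.22 ± 0.15, adjusted p = 0.322). Nor did Hsd17b7, the C3 ketoreductase (0.03 ± 0.15, adjusted p = 0.91).

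The regulators split. Insig1 went from 358, 298 and 236 CPM in fed to 104, 160.2 and 139.7 CPM in fasted wild type, a log2 fold change of −1.14 ± 0.18 SE, adjusted p = 0.000263. Insig2, its paralog, stood at 85.2, 187 and 154 CPM in fed and at 247, 283 and 319.7 CPM in fasted libraries, and Scap at 134, 109 and 144 against 219, 231 and 216 CPM. Both rose without overlap, Insig2 by 1.00 ± 0.21 and Scap by 0.78 ± 0.12, and they were the only 2 genes of the set to do so. Srebf2, which encodes SREBP2, fell by 0.35 on the log2 scale (adjusted p = 0.0283). Stard4, a carrier of free cholesterol between membranes, went from 92.4, 69.7 and 66.8 to 28.2, 40.8 and 31.6 CPM (−1.18 ± 0.17). Mylip, a ubiquitin ligase that directs lipoprotein receptors to degradation, did not pass the test (0.29, adjusted p = 0.242).

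Fed wild-type libraries varied widely among themselves: library a was the highest of the 3 for 21 of 27 genes, and the summed CPM of the set ranged from 2629 to 3714. Without library a, the calls for Acat2 (−0.42) and Fdft1 (−0.34) were lost. Without fasted library c, they were lost for Acat2 (−0.53), Fdft1 (−0.57) and Srebf2 (−0.31). The call for Srebf2 was also lost without fed library b (−0.33), fed library c (−0.35) or fasted library a (−0.37). Macrophage markers moved with this comparison, 12 of 12 lower in fasted wild-type liver, as did 4 of 7 cycling cell markers and 6 of 10 fibroblast and stellate markers. The hepatocyte marker sum went the other way, from 33323 to 36402 CPM in fed to 41670 to 43554 in fasted libraries. The bile duct sums overlapped (93.7 to 103 and 78.8 to 96.2). Per kilobase of annotated exon, Ebp (109 ± 3.40 CPM per kb, mean ± SD, n = 3) and Insig1 (96.2 ± 19.8) had the highest levels of the set in fed wild-type liver and Ggps1 the lowest (1.30 ± 0.209).

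In labelled knockout liver no such fall passed the test. None of the 27 genes passed the test between fasted and fed knockout liver by edgeR's quasi-likelihood test, where 1.39% of all tested genes were called. That background rests on single libraries: 332 genes were called over all tested genes, 4 without fasted knockout library a or c, 15 without fed knockout library a, 51 without fed knockout library c and 1242 without fasted knockout library b. With only these groups in the fit 27 were called, and 932 by DESeq2. At an unadjusted p under 0.05 there were 2 members, Ebp and Acat2. DESeq2 called 1, Ebp, which was also called without fasted knockout library b (−0.45). The median log2 fold change of the set was −0.08, against −0.02 over all tested genes. Mvd stood at 21.6, 25.7 and 25.3 CPM in fed and 22.5, 21.8 and 21.0 CPM in fasted knockout libraries (log2 fold change −0.15 ± 0.19, adjusted p = 0.734). Sqle stood at 115, 134 and 125 against 104, 108 and 111 CPM (−0.21 ± 0.20, adjusted p = 0.618), and Nsdhl at 77.6, 94.6 and 105 against 88.4, 86.4 and 105 CPM (0.01 ± 0.21). The regulators gave 0.25 ± 0.18 for Insig1, 0.17 ± 0.21 for Insig2, 0.08 ± 0.12 for Scap and 0.17 ± 0.11 for Srebf2. Ebp came closest to a call: 79.5, 69.3 and 69.0 CPM in fed and 49.8, 61.1 and 56.2 CPM in fasted knockout, without overlap, at −0.38 ± 0.11 (adjusted p = 0.08). Sqle was also lower in fasted knockout without overlap, as were Aacs (45.3 to 51.7 CPM fed, 39.8 to 40.8 fasted) and Mvk (35.4 to 40.8 and 32.1 to 33.6). None of these passed the test, and how often all tested genes separate in this way was not counted.

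**Figure D2:**
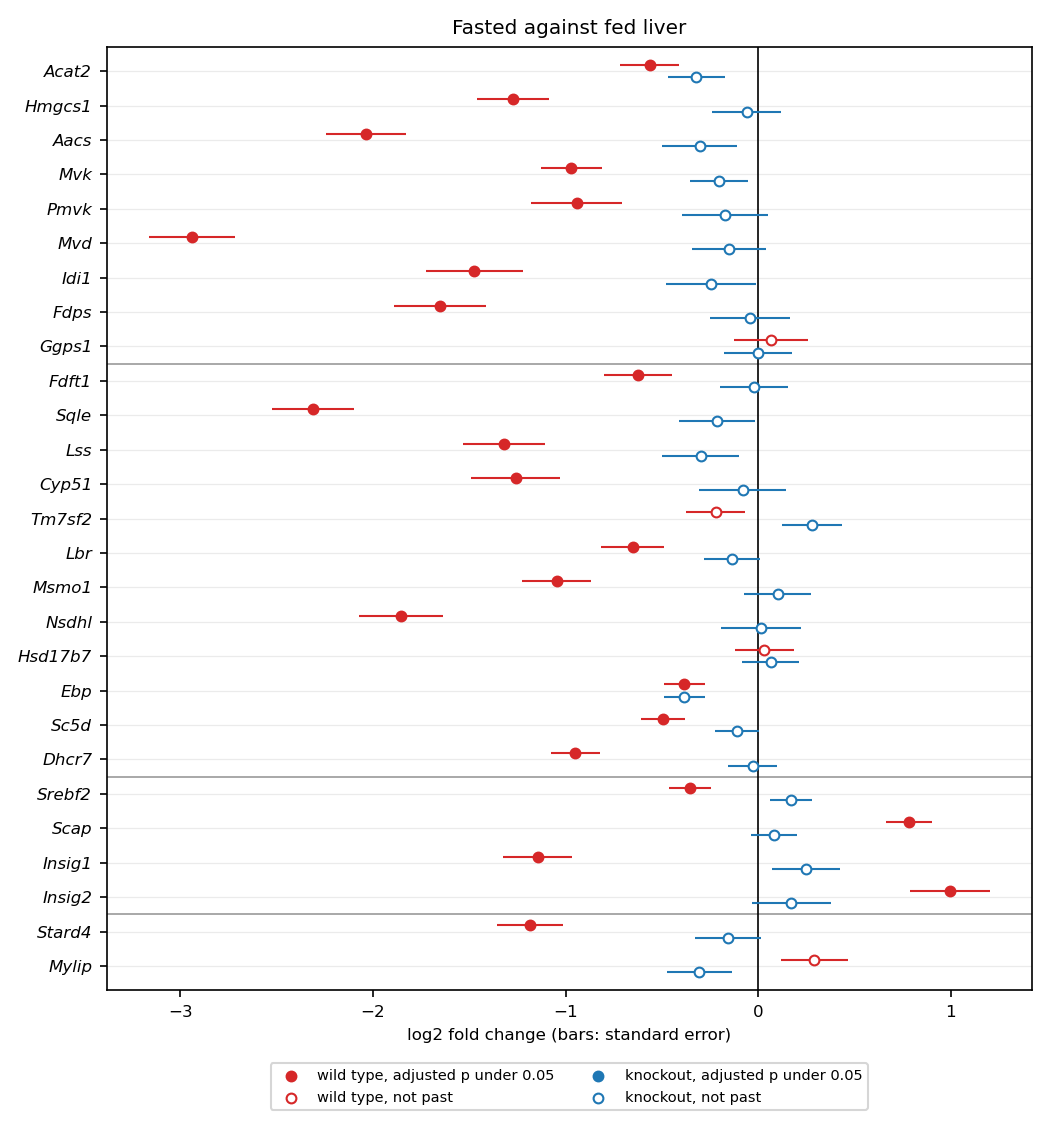
Log2 fold change (points) and standard error (bars) of fasted against fed liver for each gene, in wild-type and in labelled knockout liver, with filled points past an adjusted p of 0.05. The wild-type points of Mvd (−2.94) and Sqle (−2.31) lie far to the left, the knockout points of both near 0, and no knockout point is filled.

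The difference between the fasting responses was tested as an interaction. For 16 of 27 genes the change with fasting differed between the labelled genotypes, 15 with a higher and 1 with a lower value in knockout liver, where 12.1% of all tested genes were called. The median interaction was 0.77 over the set and 0.01 over all tested genes. Of the mevalonate steps 6 of 9 were called, led by Mvd (2.79 ± 0.29 SE, adjusted p = 3.88e-05) and Aacs (1.73 ± 0.28), with Fdps (1.61), Idi1 (1.23), Hmgcs1 (1.21) and Mvk (0.77). Of the squalene and sterol steps 6 of 12 were called, led by Sqle (2.10 ± 0.29 SE, adjusted p = 0.000328) and Nsdhl (1.87 ± 0.30), with Cyp51 (1.18), Msmo1 (1.15), Lss (1.02) and Dhcr7 (0.92). Insig1 (1.39 ± 0.25), Stard4 (1.03 ± 0.24) and Srebf2 (0.53 ± 0.16) had a higher value, and Scap was the gene with a lower one (−0.70 ± 0.17, adjusted p = 0.0136). The interaction of Insig2 was −0.82 ± 0.29 and missed the threshold (adjusted p = 0.0802). Ebp gave −0.0011 ± 0.14, its falls being −0.38 in wild-type and −0.38 in knockout liver. The calls for Cyp51, Lss and Mvk were lost without fed wild-type library a, at 0.86, 0.76 and 0.55. These 3, Idi1 and Srebf2 also lost theirs without at least 1 other library (without fasted wild-type library c, 1.15, 0.96, 0.76, 1.27 and 0.50), and Scap lost its call with no filter on low counts (−0.57). All 12 macrophage markers and 4 of 10 fibroblast and stellate markers were also called in this interaction.

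Knockout and wild-type livers were compared in the fed state. In fed liver 9 of 27 genes were lower and 2 were higher in labelled knockout, where 46.3% of all tested genes were called. The share of the set called was thus below that of all tested genes. The median log2 fold change was −0.24 against 0.01 over all tested genes. With library sizes alone in place of TMM scaling, where the all-gene median became 0.39, the split was 7 higher and 7 lower. The late sterol step genes Tm7sf2 and Ebp were the furthest apart. Tm7sf2 stood at 129, 90.9 and 88.0 CPM in fed wild type and 25.7, 34.5 and 28.5 CPM in fed knockout, 3.47-fold lower (log2 fold change −1.79 ± 0.16 SE, adjusted p = 3.46e-07). Ebp (ENSMUSG00000031168, chromosome X, 8185329 to 8193512, minus strand) stood at 254, 242 and 258 against 79.5, 69.3 and 69.0 CPM, 3.46-fold lower (−1.79 ± 0.11 SE, adjusted p = 1.02e-08). Sc5d, whose product Dhcr7 reduces, was lower too (log2 fold change −0.71 ± 0.12).

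The other genes lower in fed knockout liver were regulatory, transport and mevalonate genes. Stard4 stood at 92.4, 69.7 and 66.8 CPM in wild type and 23.7, 30.9 and 27.8 CPM in knockout, without overlap (−1.47 ± 0.17 SE, adjusted p = 4.84e-06). Insig1 stood at 358, 298 and 236 against 103, 135 and 131 CPM, also without overlap (−1.27 ± 0.18 SE, adjusted p = 3.44e-05), while Insig2 gave −0.29 ± 0.21 and overlapped. Mvd and Aacs were lower, with log2 fold changes of −1.09 ± 0.19 and −0.95 ± 0.19. Hmgcs1, Idi1, Fdps, Sqle, Lss, Cyp51 and Msmo1 did not pass the test, with values from −0.33 for Idi1 to 0.33 for Hmgcs1. Nor did Nsdhl, at 181, 101 and 90.8 CPM in wild type and 77.6, 94.6 and 105 CPM in knockout, with overlap. With library sizes alone 11 members that were below wild type had a value above it, among them Idi1 (0.05), Sqle (0.20), Cyp51 (0.28) and Dhcr7 (0.13). The 2 higher genes were Mylip, at 25.8, 36.3 and 34.8 CPM in wild type and 60.5, 40.9 and 54.7 CPM in knockout (0.69 ± 0.17), and Hsd17b7, at 96.0, 68.0 and 57.3 against 99.3, 112 and 108 CPM (0.53 ± 0.15). Hsd17b7 missed the threshold without fed wild-type library c (0.38). The calls for Pmvk (−0.58) and Srebf2 (−0.28) were lost in most refits that left out 1 library, Pmvk reaching −0.35 without fed knockout library a. With library sizes alone Srebf2 turned to 0.09. In the same comparison 8 of 9 hepatocyte markers were lower. Higher were 10 of 12 macrophage, 7 of 7 cycling cell, 8 of 10 fibroblast and stellate and 2 of 6 bile duct markers.

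In fasted liver most genes of the synthesis steps were higher in labelled knockout. Of the 27 genes 14 were higher and 6 lower in fasted knockout than in fasted wild-type liver, where 56.2% of all tested genes were called, with a median log2 fold change of 0.56 against 0.01. With library sizes alone, where the all-gene median became 0.52, the split was 21 higher and 3 lower. No gene of the mevalonate steps was lower and 6 of 9 were higher. Mvd stood at 6.96, 7.52 and 5.50 CPM in fasted wild type and 22.5, 21.8 and 21.0 CPM in fasted knockout, 3.26-fold higher (1.70 ± 0.22 SE, adjusted p = 1.04e-05). Hmgcs1 stood at 73.5, 83.6 and 72.2 against 215, 224 and 230.0 CPM, 2.92-fold higher (1.55 ± 0.19 SE, adjusted p = 4.64e-06). Fdps, Idi1, Aacs and Mvk were higher by 1.42, 0.90, 0.78 and 0.73 on the log2 scale.

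Of the squalene and sterol steps 8 were higher and 3 lower in fasted knockout liver. Sqle stood at 26.4, 36.2 and 22.3 CPM in fasted wild type and 104, 108 and 111 CPM in fasted knockout, 3.79-fold higher and the largest rise of the set (1.92 ± 0.21 SE, adjusted p = 1.71e-06). Nsdhl (1.44), Cyp51 (1.08), Msmo1 (0.96), Lbr (0.78), Lss (0.75), Dhcr7 (0.68) and Hsd17b7 (0.56) were higher too, and Fdft1 missed the threshold at 0.43 (adjusted p = 0.0501). Ebp stood at 191, 199 and 189 CPM in fasted wild type and 49.8, 61.1 and 56.2 CPM in fasted knockout (−1.79 ± 0.11). Tm7sf2 stood at 87.6, 88.4 and 88.4 against 31.3, 35.6 and 40.8 CPM (−1.30 ± 0.16). Both were below wild type without overlap in the fasted as in the fed state. Sc5d gave 176, 189.5 and 181 against 137, 164 and 136 CPM (−0.33), a call that was lost without any of 5 of the 6 libraries compared (−0.26 without fasted wild-type library b) and that turned to 0.19 with library sizes alone.

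Insig2 and Scap, the 2 genes that rose with fasting in wild type, were lower in fasted knockout. Insig2 stood at 247, 283 and 319.7 CPM in fasted wild type and 119, 126 and 148 CPM in fasted knockout (−1.11 ± 0.21 SE, adjusted p = 0.00031), without overlap. Scap stood at 219, 231 and 216 against 135, 126 and 151 CPM (−0.69 ± 0.12), and its call was lost with library sizes alone (−0.18). Insig1 overlapped between the genotypes (0.12 ± 0.18), as did Mylip (0.09), and Srebf2 missed the threshold at 0.24 (adjusted p = 0.0761). Stard4 was lower (−0.44 ± 0.17) with overlapping libraries, a call lost without fasted wild-type library b (−0.24) or c (−0.46) or fasted knockout library a (−0.40) or b (−0.36), and turned to 0.07 with library sizes alone. The fed and fasted comparisons use separate libraries, and the plot of knockout against wild-type changes sets them side by side. All 9 hepatocyte markers were lower in fasted knockout liver. Higher were 12 of 12 macrophage, 7 of 7 cycling cell, 8 of 10 fibroblast and stellate and 5 of 6 bile duct markers.

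**Figure D3:**
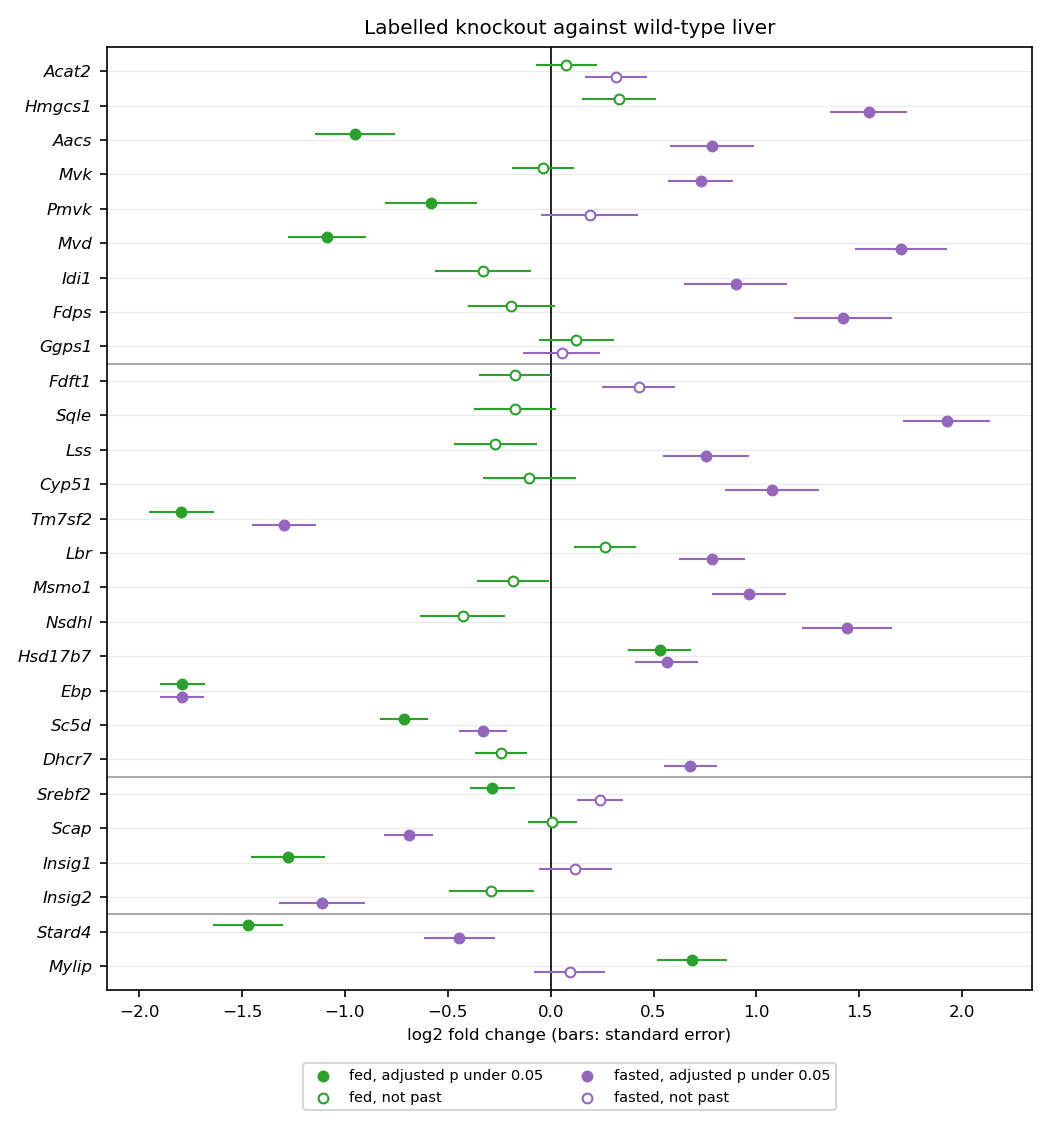
Log2 fold change (points) and standard error (bars) of labelled knockout against wild-type liver for each gene, fed and fasted, with filled points past an adjusted p of 0.05. Mvd lies at −1.09 in fed and 1.70 in fasted liver, while Ebp lies at −1.79 in both.

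Neighbouring pathways were read from lists of genes outside the set. Their counts stand beside the shares of all tested genes called, 26.3% for fasting in wild type and 46.3% and 56.2% for knockout against wild type in fed and fasted liver. Of 14 genes of fatty acid synthesis under SREBP1, 6 fell and 3 rose with fasting in wild-type liver, with a median log2 fold change of −0.32. Thrsp, a lipogenic regulator, changed by −3.04 ± 0.20, Fasn, the fatty acid synthase, by −2.27 ± 0.17, Acly, which supplies cytosolic acetyl-CoA, by −1.03 ± 0.13 and the elongase Elovl5 by 1.72 ± 0.20. None of the 14 passed the test with fasting in knockout liver. Against wild type, 10 were lower and 1 higher in fed knockout liver (median −0.77). In fasted knockout liver 7 were lower and 1 higher (median −0.45), a share near the 56.2% of all tested genes. Of 10 targets of the oxysterol receptor LXR and sterol efflux genes, 5 rose and 3 fell with fasting in wild type. Srebf1, which encodes SREBP1, fell by 3.47 ± 0.15 on the log2 scale and the cholesterol exporter Abca1 by 0.84 ± 0.11, whereas the canalicular transporters Abcb4 and Abcg8 rose by 1.17 ± 0.12 and 1.59 ± 0.18. Abca1 fell with fasting in knockout liver as well (−0.81 ± 0.11, adjusted p = 0.00702, edgeR's quasi-likelihood test). Whether this call holds without single libraries, on which the calls of that comparison rest, was not tested.

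Of 14 genes of SREBP processing and sterol-regulated degradation, 2 rose and 2 fell with fasting in wild type, a share near the 26.3% of all tested genes. In knockout liver 7 were lower and 3 higher when fed and 8 lower and 4 higher when fasted. Sar1b, a GTPase of the vesicles that leave the endoplasmic reticulum, was lower in fed (−1.49 ± 0.13) and fasted (−1.67 ± 0.13) knockout liver, as was the coat gene Sec24a (−0.76 ± 0.11 and −0.77 ± 0.11). Of 14 genes of cholesterol storage and trafficking, 3 rose and 5 fell with fasting in wild type. In fed knockout liver 5 were higher and 2 lower, a share near the 46.3% of all tested genes. In fasted knockout liver 7 were higher and 4 lower. Soat1, a cholesterol esterifying enzyme, was higher by 1.47 ± 0.20 and 2.11 ± 0.23, and Npc2, a lysosomal sterol carrier, by 0.90 ± 0.10 and 1.44 ± 0.10. Of 13 genes of other isoprenoid branches, 1 rose and 1 fell with fasting in wild type, and 3 were called in fed and 6 in fasted knockout liver, shares below the 46.3% and 56.2% of all tested genes. Macrophages express several of these storage genes, and the macrophage marker sums above moved in the same comparisons. Their part in these values was not tested.

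Before the MEF values are given, the headings of their columns need a check against genes known to respond to amino acid supply or autophagy. Chac1 and Trib3, targets of the amino acid stress factor ATF4, and Mat2a, the S-adenosylmethionine synthetase gene whose transcript is kept when methionine is short, and Sqstm1, an autophagy receptor gene, were chosen for this after their values were seen. Chac1 had deposited log2 values of 9.29 ± 0.03 (mean ± SD, n = 3) in basal, 10.44 ± 0.11 in deprived, 13.05 ± 0.05 in 1 h and 13.83 ± 0.10 in 4 h columns headed GFP. Under CRE it had 12.31 ± 0.10, 13.38 ± 0.03, 10.25 ± 0.04 and 11.50 ± 0.07. Trib3 had means of 8.73, 9.73, 12.39 and 12.57 under GFP and 12.23, 12.52, 10.63 and 11.23 under CRE. Mat2a had means of 12.34, 12.17, 13.89 and 13.77 under GFP and 13.60, 13.59, 11.80 and 11.43 under CRE. The CRE 4 h libraries of Mat2a spread widely (SD 0.50, 10.85 to 11.73). Sqstm1 had means of 14.45, 15.14, 15.09 and 15.57 under GFP and 15.20, 15.66, 14.86 and 15.35 under CRE. Chac1, Trib3 and Mat2a were thus highest in the columns headed replenished under GFP and in those headed basal and deprived under CRE. The order under GFP goes against the headings. Under CRE the high basal values may also go with the genotype, which was not tested. Sqstm1 did not share the pattern, with deprived slightly above 1 h under GFP and 4 h above basal under CRE. From basal to deprived columns Chac1 and Trib3 rose under both headings, which goes with the headings. Mat2a did not rise, with 12.34 and 12.17 under GFP and 13.60 and 13.59 under CRE. Pik3r4 did not check the headings either: it was higher under CRE than under GFP in basal (log2 difference 0.23), deprived (0.21) and 1 h columns (0.15). At 4 h its difference did not pass the test (0.05). Across 13914 genes the CRE minus GFP difference in basal columns correlated with that in deprived columns at 0.91 and with that in 1 h columns at −0.56, as a description of libraries normalized together. MEF groups are therefore named by heading alone, and no difference between them is read as an effect of methionine or of Vps15.

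By heading, most of the set moved together among the 8 MEF groups. The mean log2 value of the 27 genes ranged over the 3 libraries of a group from 10.13 to 10.20 in GFP basal, 10.48 to 10.51 in GFP deprived, 9.50 to 9.51 in GFP 1 h and 9.76 to 9.79 in GFP 4 h columns. Under CRE it ranged from 9.47 to 9.50 in basal, 9.70 to 9.73 in deprived, 9.55 to 9.61 in 1 h and 9.99 to 10.01 in 4 h columns. GFP deprived was the highest group and GFP basal the second, CRE 4 h followed, and the lowest groups, CRE basal and GFP 1 h, overlapped. Within a group the SD of a gene was 0.00753 to 0.201, with a median of 0.0523, which is small beside most differences given here. CRE library 3 at 4 h stood apart from its replicates, with a chi-square per degree of freedom, over recovered counts, of 16.3 and 18.1 against 1.81 to 4.71 for other MEF pairs. When any 1 library was left out, 18 to 21 members were called in the 3 comparisons with that group. Fibroblast markers were abundant in every MEF group (mean log2 value 10.84 to 10.90 in GFP 4 h and 11.28 to 11.42 in GFP basal columns), while hepatocyte markers stood near the lowest value of the table (4.42 to 4.45 in GFP basal columns against 4.17).

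**Figure D4:**
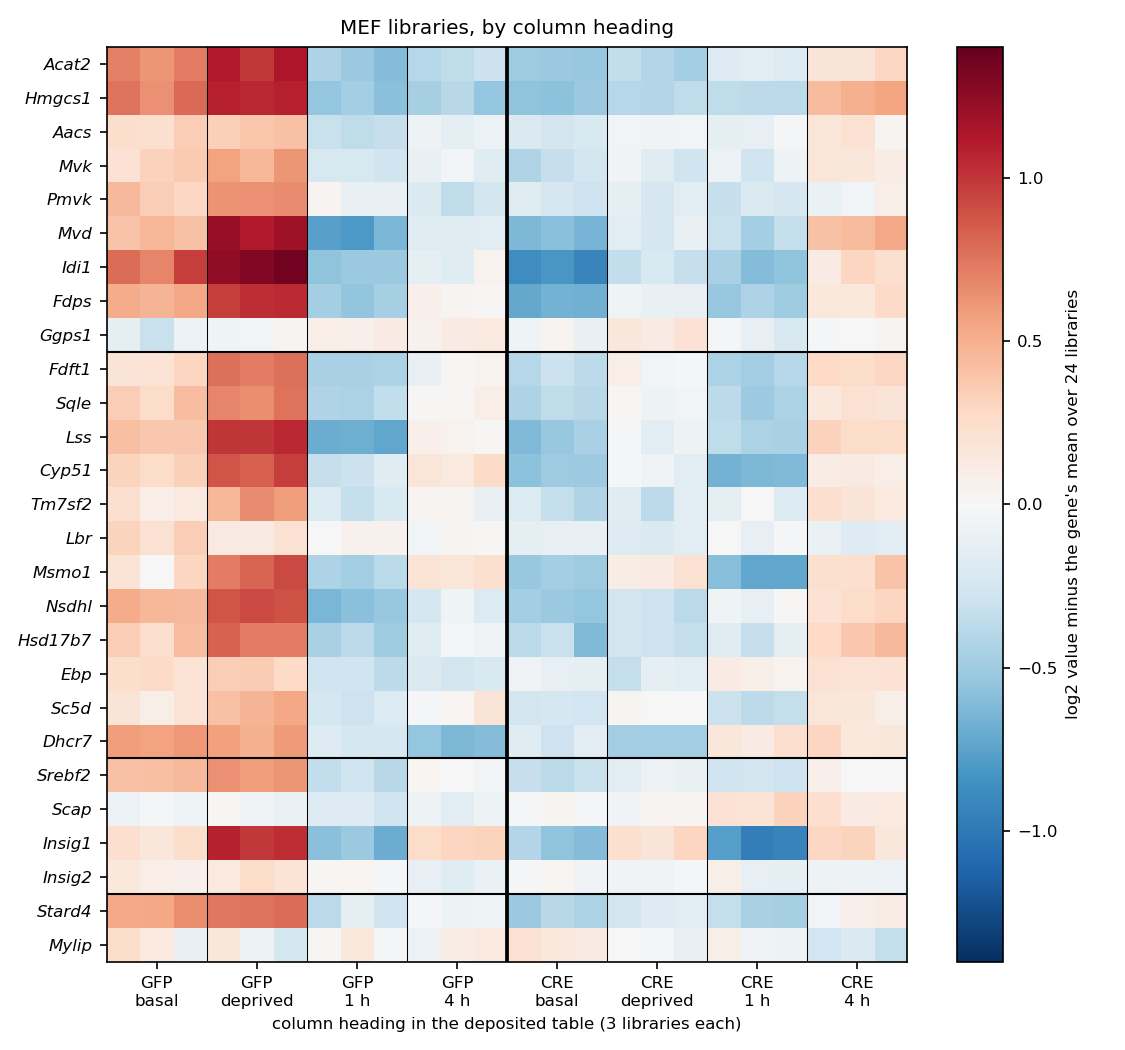
Deposited log2 value of each gene in each of 24 MEF libraries, minus the gene's mean over all 24 (colour scale), with libraries grouped by column heading, 3 each. The GFP deprived columns are the most intense red for most genes, and Insig1 is lowest in the CRE 1 h columns.

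From basal to deprived columns most of the set rose under both headings. Under GFP 20 genes rose and 1 fell (23.6% of all tested genes called, limma), with a median log2 difference of 0.34, against −0.01 over all tested genes. Under CRE 17 rose and 1 fell (28.5%), with a median of 0.20. Insig1 showed the largest difference under both headings. It went from 10.74, 10.67 and 10.76 in basal to 11.58, 11.49 and 11.55 in deprived columns under GFP (0.82 ± 0.06 SE, adjusted p = 5.23e-13, limma) and from 10.10, 9.95 and 9.90 to 10.74, 10.69 and 10.81 under CRE (0.77 ± 0.06 SE, adjusted p = 2.03e-12, limma). Srebf2 rose by 0.19 ± 0.04 and 0.22 ± 0.04, and Mvd, the most changed of the mevalonate steps under GFP, by 0.75 ± 0.07 and 0.46 ± 0.07. The gene that fell was Lbr under GFP (−0.14), a call lost without any 1 of 4 of the 6 libraries compared (−0.11 without GFP basal library 3), and Dhcr7 under CRE (−0.28). The step differed between headings for 2 genes, Acat2 (−0.29 ± 0.08) and Dhcr7 (−0.25 ± 0.07), where 4.78% of all tested genes were called. Those 665 genes became 360 without GFP deprived library 1, 387 without CRE basal library 1, 399 without GFP basal library 3, 428 without GFP deprived library 2, 424 and 436 without CRE deprived library 2 or 3, and 419 with no filter on low values. Leaving out 1 of the other libraries gave 480 to 777. The call for Acat2 was lost in 6 and that for Dhcr7 in 10 of the 12 refits that left out 1 library, at −0.25 for Acat2 without CRE deprived library 3 and −0.22 for Dhcr7 without CRE basal library 3.

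From deprived to replenished columns the headings parted. Under GFP 25 genes were lower and 0 higher at 1 h (59.5% of all tested genes called), with a median of −1.03, and 24 were lower and 0 higher at 4 h (66.1%), with a median of −0.70. Under CRE 6 were higher and 13 lower at 1 h (60.1%; median −0.09), and 21 were higher and 2 lower at 4 h (51.8%; median 0.24). Hmgcs1 stood at 11.68, 11.65 and 11.69 in deprived, 10.06, 10.12 and 10.02 in 1 h and 10.14, 10.22 and 10.06 in 4 h columns under GFP. Under CRE it stood at 10.20, 10.19 and 10.25 in deprived, 10.25, 10.23 and 10.22 in 1 h and 11.04, 11.09 and 11.15 in 4 h columns. The deprived columns lay above the others under GFP and below the 4 h columns under CRE. Insig1 was lower at 1 h than in deprived columns under both headings (−1.63 ± 0.06 under GFP and −1.13 ± 0.06 under CRE). Mvd fell most under GFP (−1.90 ± 0.07 at 1 h). Dhcr7 rose most at 1 h under CRE (0.65 ± 0.05), and Hmgcs1 at 4 h (0.88 ± 0.04). Cycling cell markers moved in the same comparisons: 7 of 7 were lower at 1 h and at 4 h under GFP, and 6 of 7 were higher at each under CRE. Their mean log2 value was 12.21 to 12.28, 11.68 to 11.82 and 11.53 to 11.60 in GFP deprived, 1 h and 4 h columns and 11.48 to 11.50, 11.85 to 11.96 and 11.74 to 11.84 under CRE, and their part in the result was not tested.

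Between 1 h and 4 h columns the set rose under both headings: 18 genes were higher and 3 lower under GFP (36.7% of all tested genes called; median 0.24), and 20 higher and 1 lower under CRE (25.4%; median 0.39). Insig1 went from 9.92, 9.99 and 9.81 to 10.77, 10.81 and 10.82 under GFP (0.89 ± 0.06 SE, adjusted p = 6.62e-14, limma). Under CRE it went from 9.74, 9.54 and 9.57 to 10.79, 10.82 and 10.67 (1.14 ± 0.06 SE, adjusted p = 2.2e-16, limma). It showed the largest difference of the set in both. Under GFP the 3 lower genes were Dhcr7 (−0.37), Pmvk (−0.21) and Insig2 (−0.14). Pmvk lost its call without GFP 4 h library 2 (−0.17) or 1 h library 1 (−0.16), and Insig2 without either of these (−0.12 and −0.13) or 1 h library 2 (−0.13). Under CRE the lower gene was Mylip (−0.25), a call lost without any 1 of 4 of the 6 libraries compared, among them CRE 4 h library 3, which stood apart (−0.22).

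Columns headed CRE and GFP were also compared within each condition heading. In basal columns 24 genes were lower under CRE and 0 higher (58.3% of all tested genes called), with a median of −0.74. In deprived columns 24 were lower and 1, Ggps1, higher (62.6%), with a median of −0.79. Ggps1 (0.18) lost its call when each library was shifted to 1 median (0.10). Idi1 was the furthest apart in both: 9.41, 9.31 and 9.59 under GFP and 7.76, 7.81 and 7.70 under CRE in basal columns (−1.68 ± 0.07 SE, adjusted p = 2.65e-19, limma), and 9.87, 9.92 and 9.98 and 8.29, 8.41 and 8.30 in deprived columns (−1.59 ± 0.07 SE, adjusted p = 7.82e-19, limma). Srebf2 stood at 12.45, 12.46 and 12.49 under GFP and 11.72, 11.67 and 11.73 under CRE in basal columns (−0.76 ± 0.04), and Stard4 at 10.81, 10.81 and 10.92 against 9.75, 9.89 and 9.83 (−1.03 ± 0.05). These groups did not overlap. Scap (0.05 and 0.05) and Mylip (0.06 and 0.01) passed in neither. The 7 cycling cell markers were lower under CRE in the same columns, 7 of 7 in each (mean log2 value 12.39 to 12.49 under GFP and 11.70 to 11.81 under CRE in basal columns), and their part in the result was not tested.

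In 1 h columns 10 genes were higher and 6 lower under CRE (55% of all tested genes called, median 0.01), or 13 and 4 when each library was shifted to 1 median. The share of the set called was near that of all tested genes. In 4 h columns 17 were higher and 2 lower (59.8%; median 0.24). Nsdhl was the most raised of the sterol steps at 1 h (0.53 ± 0.06) and Dhcr7 at 4 h (0.79 ± 0.05). Hmgcs1 stood at 10.14, 10.22 and 10.06 under GFP and 11.04, 11.09 and 11.15 under CRE at 4 h (0.96 ± 0.04 SE, adjusted p = 2.56e-18, limma). Scap was higher under CRE at 1 h (0.45 ± 0.04) and 4 h (0.26 ± 0.04). The 6 lower genes at 1 h were Cyp51 (−0.37), Insig1 (−0.29), Msmo1 (−0.25), Ggps1 (−0.21), Pmvk (−0.20) and Stard4 (−0.15), and the 2 at 4 h were Mylip (−0.32) and Lbr (−0.14). Without 1 h GFP library 2 or 1 h CRE library 2 or 3 the call for Stard4 was lost (−0.09, −0.13 and −0.12), and without library 1 of either heading that for Pmvk (−0.15 and −0.16). Of the 12 tested genes of fatty acid synthesis under SREBP1, 9 were lower and 1 higher under CRE in basal columns. In deprived columns 10 were lower and 1 higher. At 1 h 2 were higher and 0 lower, and at 4 h 5 were higher and 1 lower. The shares called at 1 h and 4 h were below those of all tested genes. Of the 7 cycling cell markers 4 were higher under CRE at 1 h and 5 at 4 h.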

How the data were processed

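RNA-seq was measured in 12 liver and 24 MEF libraries. Liver values are deposited whole-number counts per gene. The submitters' processing notes name HISAT2, Subread, edgeR and DESeq2 for them and build mm10. MEF values are deposited log2 values per gene, described by the labels as variance-stabilized, for which the notes name STAR 2.7.10b, featureCounts, DESeq2 and limma. All MEF values (100%, tolerance 0.01) came out as whole reads once the scale of each library was undone, and these recovered counts give the MEF depth. The deposited log2 values do not go below 4.17, so a difference understates the change of low genes.

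Liver counts were tested with edgeR 4.0.16 (TMM factors, filterByExpr, quasi-likelihood fit over all 4 groups) in R 4.3.3, and MEF log2 values with limma 3.58.1 (trend and robust, all 8 groups) on genes with a mean over the 24 libraries of 1 or more above that lowest value. P-values were adjusted by Benjamini-Hochberg over all tested genes within a comparison, and a call is an adjusted p under 0.05. Of 5 liver and 13 MEF comparisons, those within a tissue share libraries, and the tissues were normalized separately. A fold change has its standard error, computed as its size over the root of the F statistic in liver. The alternatives were RLE factors, library sizes alone, DESeq2 1.42.0, no filter on low values, Ensembl genes only, only the groups compared, a shift of libraries to 1 median, no trend and no robust step, edgeR on recovered counts, a replicate block and leaving out each library. Both procedures were also run on simulated data in which a small share of genes was raised or lowered at random. That setting held no broad shift between groups, so it cannot judge the scaling of these libraries.

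Rows with NONCODE identifiers held 20.5% to 24.8% of the counts of a liver library. Gene names for liver came from a table of Ensembl gene names that matched 48058 of 48526 Ensembl identifiers, and positions are those of GENCODE on build GRCm38. Liver columns carry no replicate number and are called a, b and c. Genes sharing reads with close copies may be miscounted, since multimapping settings are not given in the sources used here. The members and lists were chosen with earlier results of these data known. Values per library are given for called members with the largest change in each role and for those that moved against most members. Genes outside the set are named only from the lists, up to 4 of each list with the smallest adjusted p, except Pik3r4 and the 4 genes that check the MEF headings. Figures were drawn with matplotlib 3.10.9 in Python 3.11.15.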

Additional observations from a re-analysis of the deposited data

Results flagged for a closer look

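For 16 genes of the set the change with fasting differed between wild-type and labelled knockout liver by the interaction test (edgeR's quasi-likelihood test, adjusted p under 0.05). Of all tested genes 12.1% were called. Under every alternative 10 of the 16 calls were kept, and those for Cyp51, Lss, Mvk, Idi1, Srebf2 and Scap were not. On the log2 scale, as the change in knockout minus that in wild type, the values of the mevalonate steps were 2.79 for Mvd, 1.73 for Aacs, 1.61 for Fdps, 1.23 for Idi1, 1.21 for Hmgcs1 and 0.77 for Mvk. Those of the squalene and sterol steps were 2.10 for Sqle, 1.87 for Nsdhl, 1.18 for Cyp51, 1.15 for Msmo1, 1.02 for Lss and 0.92 for Dhcr7. Insig1 had 1.39, Stard4 1.03 and Srebf2 0.53, and Scap, the gene with the opposite sign, −0.70.

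In MEFs the change from basal to deprived columns differed between the headings CRE and GFP for 2 genes by limma's interaction test, Acat2 (−0.29) and Dhcr7 (−0.25). Of all tested genes 4.78% were called, and neither member kept its call under every alternative.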

How the results depend on the processing

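Liver counts of a member went down to 36 (Fdps in a fasted wild-type library), and neither depth nor the number of libraries was varied. Between fasted and fed knockout liver 1 member, Ebp, was called with library sizes alone, with DESeq2, on Ensembl genes only and without fasted knockout library b, so that 0 to 1 were called on leaving out a library. With library sizes alone 3 called values against wild type turned sign, Srebf2 in fed liver (0.090) and Stard4 (0.065) and Sc5d (0.19) in fasted liver, and 10 uncalled values in fed liver did so too. The number of members whose change from basal to deprived columns differed between headings was 0 with no filter on low values and 0 to 2 on leaving out a library. The other counts of called members stayed within 1.5 times under each alternative. Leaving out 1 library gave 20 to 23 called members for fasting in wild type, 9 to 12 and 18 to 20 for knockout against wild type in fed and fasted liver, and 11 to 16 for the interaction. The shares of all tested genes called in these refits are not given, so the counts describe the members alone. In MEFs the deviations of same-numbered libraries correlated at 0.010 to 0.23 under GFP (median 0.088, against −0.034 for different numbers), at −0.15 to 0.067 under CRE and at −0.16 to 0.23 between headings. Not every pair was over 0.1, so the numbers were not taken as pairs. With the replicate number as a block, 21, 25, 24 and 21 members were called under GFP for deprived against basal, 1 h and 4 h against deprived and 4 h against 1 h, 17, 19, 24 and 21 under CRE, and 24, 25, 16 and 18 for CRE against GFP in basal, deprived, 1 h and 4 h columns. No paired analysis was possible in liver because the columns carry no replicate numbers.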
